A study of Mus musculus with 10 samples.

Results

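The genes described here belong to the ER stress response and the integrated stress response. They were chosen by symbol: *Hspa5*, *Herpud1*, *Atf6*, *Xbp1*, *Atf4*, *Ddit3*, *Trib3*, *Ppp1r15a*, *Asns* and *Ddit4*. Of these 10 genes, 9 were listed among the 15900 genes of the deposited table, and all 9 were tested. *Trib3* (mm9, chromosome 2, 152163158 to 152169768, minus strand), which encodes a pseudokinase induced by ATF4 and CHOP, was not listed, and no level is given for it.

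The RNA came from whole hippocampi of 10 male ICR mice aged 9 to 10 weeks. In CAGE, the 5′ ends of capped RNAs are sequenced, so that each tag marks a transcription start, and levels are given as CPM, the tags of a gene scaled to the same total in each library. The pre-SE group is labelled untreated, and the study's methods describe saline in place of pilocarpine (PILO) for control mice. The other mice received methyl scopolamine and then PILO at 290 mg/kg, which induces status epilepticus (SE), a state of prolonged seizures, and all of them received diazepam to end it. SE mice were sampled at 6 h or at 2 days. SE + LEV mice also received the antiepileptic drug levetiracetam (LEV) orally at 360 mg/kg, 1 dose in the mice sampled at 6 h and 5 doses in those sampled at 2 days. Each of the 5 groups had 2 mice, which limits every comparison below, and no group received LEV without SE. A hippocampus holds many cell types, so a fall in these data could reflect fewer cells of a type or less RNA per cell, and the data cannot tell them apart.

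Proteins that enter the ER are folded there with the help of chaperones. When unfolded proteins accumulate, the sensors ATF6, IRE1 and PERK start the unfolded protein response. ATF6 is cut and enters the nucleus, IRE1 splices the mRNA of *Xbp1*, and PERK phosphorylates the translation factor eIF2α. Phosphorylated eIF2α, which other kinases also produce during amino acid shortage, double-stranded RNA or heme deficiency, lowers general translation while raising that of ATF4, and this branch is called the integrated stress response. ATF4 acts on genes for amino acid supply and on *Ddit3*, while PPP1R15A brings a phosphatase to eIF2α and so ends the response. Cleavage of ATF6, splicing of *Xbp1* and translation of *Atf4* leave no trace in tags from 5′ ends.

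The proximal promoters of *Hspa5*, *Herpud1* and *Ppp1r15a* are shown because the first is the standard readout of the ATF6 branch, the second carries the other known form of its element, and the third was the only gene of the set that passed the test. The sequences are the 150 bases that end just before the annotated start site in RefSeq (GRCm38.p6), written 5′ to 3′ on the strand of the gene. The windows lie at chr2:34771940-34772089 (plus strand), chr8:94386279-94386428 (plus strand) and chr7:45526269-45526418 (minus strand). Capitals mark an ER stress response element, either ERSE (CCAAT, then 9 bases of any kind, then CCACG) or ERSE-II (ATTGG, then 1 base of any kind, then CCACG).
*Hspa5*: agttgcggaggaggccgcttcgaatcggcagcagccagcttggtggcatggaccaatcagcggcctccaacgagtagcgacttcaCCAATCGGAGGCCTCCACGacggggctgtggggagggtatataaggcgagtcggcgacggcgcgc
*Herpud1*: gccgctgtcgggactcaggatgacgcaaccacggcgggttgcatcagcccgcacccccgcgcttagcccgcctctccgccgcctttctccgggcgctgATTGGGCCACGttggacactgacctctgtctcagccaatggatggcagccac
*Ppp1r15a*: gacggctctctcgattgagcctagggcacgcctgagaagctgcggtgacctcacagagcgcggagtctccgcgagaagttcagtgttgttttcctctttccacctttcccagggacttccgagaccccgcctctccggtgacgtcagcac

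Of the 9 genes, 8 had a promoter window in the RefSeq table, and *Atf6* had none. The windows searched were 300 bases long, with 250 bases before the start site, and both strands were searched. *Hspa5* was the only one of the 8 with an ERSE, whose first base lay at position -65 from the start site, and ERSE occurred in 0.119% of all 32851 windows. *Herpud1* was the only one with an ERSE-II, at position -52, a motif found in 0.0365% of all windows. No window of the 8 held the core of the XBP1 element (TGACGT, then GG; 0.676% of all windows). The composite element bound by ATF4 and C/EBP proteins is known in several forms. The form TGATG, then 1 base of any kind, then AAT was in none of the 8 windows and in 0.965% of all windows. With any last base in place of the T, a form added after the data were seen, it was in *Asns* and *Herpud1* and in 3.95% of all windows; it is not marked in capitals. The core bound by hypoxia-inducible factors (ACGTG; 19.6% of all windows) was found in 6 of the 8, with 2 copies in *Ppp1r15a* and 1 each in *Hspa5*, *Ddit3*, *Asns*, *Herpud1* and *Ddit4*; the copy in *Herpud1* overlaps its ERSE-II. These matches describe letters in the windows and not binding.

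**Figure D1:**
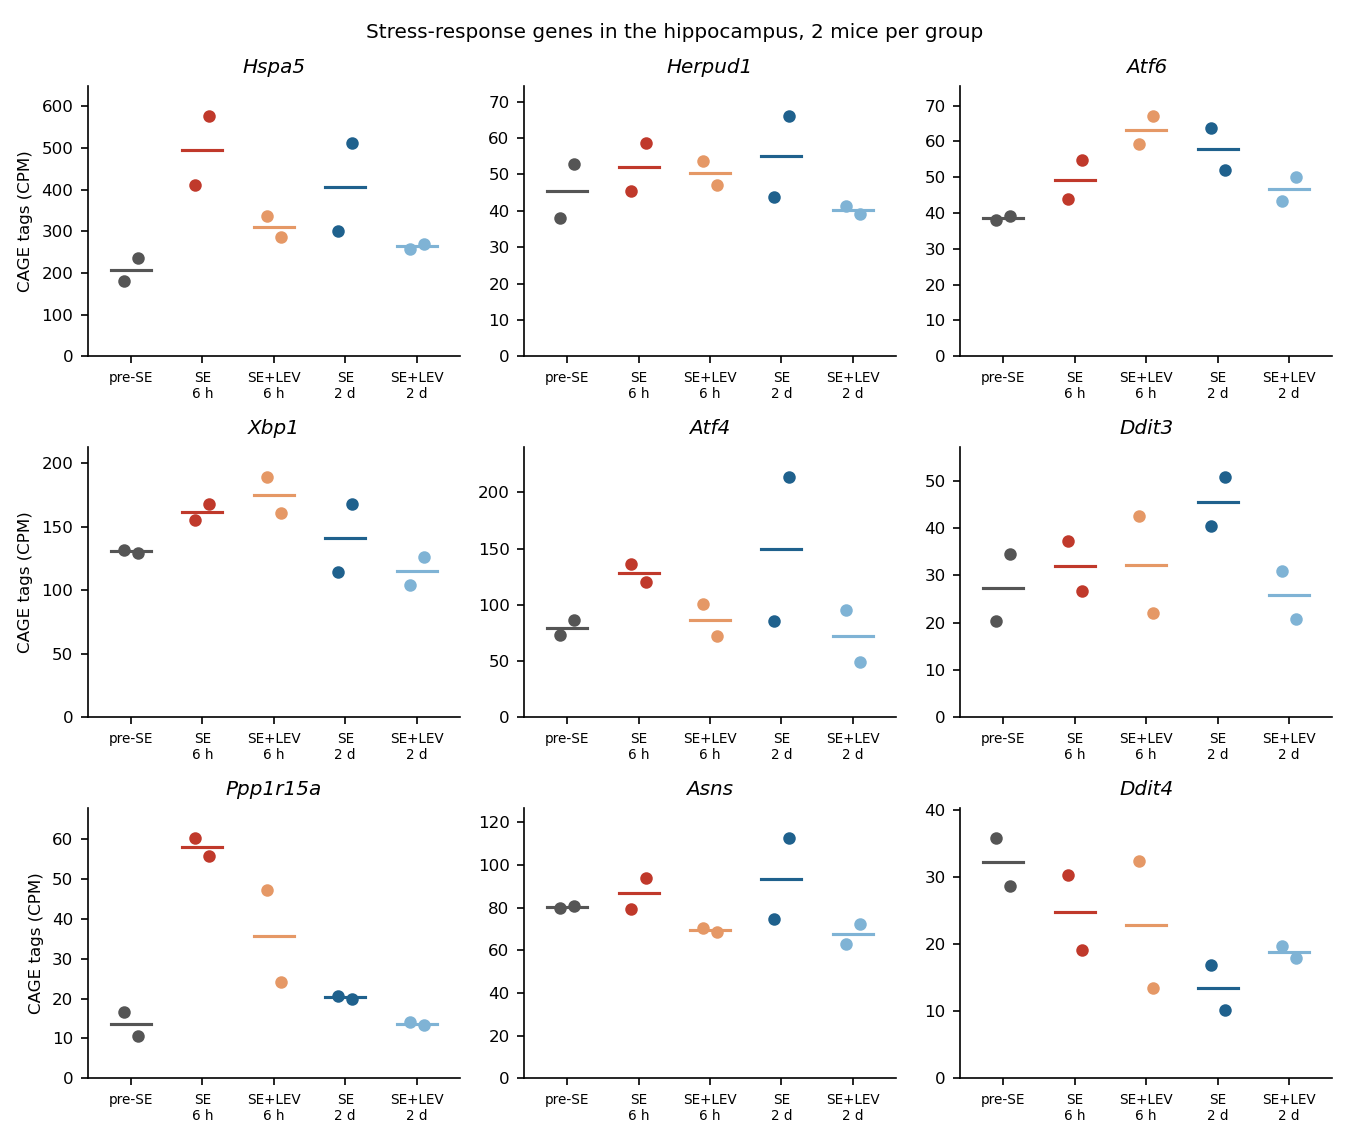
CAGE tags in CPM (vertical axes, from 0) for 9 stress-response genes in 5 groups of 2 mice; each dot is a mouse and each bar the mean of its group. *Ppp1r15a* stood at 55.84 and 60.27 CPM in SE 6 h mice against 10.66 and 16.52 CPM in pre-SE mice. The group mean of *Ddit4* was lowest in SE 2 days mice (13.5 CPM), which overlapped the SE + LEV 6 h mice.

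*Ppp1r15a*, the inducible phosphatase subunit that reverses eIF2α phosphorylation, changed most. Its level was 16.52 and 10.66 CPM in the pre-SE mice, 60.27 and 55.84 CPM at 6 h after SE, 47.28 and 24.10 CPM in SE + LEV mice at 6 h, 20.73 and 19.92 CPM at 2 days after SE, and 14.20 and 13.27 CPM in SE + LEV mice at 2 days. Both SE 6 h mice were above all the other mice, and the SE + LEV 2 days mice lay within the pre-SE range. The group means were 13.6 ± 4.14 CPM before SE and 58.1 ± 3.13 CPM at 6 h (SD, n = 2), a ratio of 4.27. On the scale of log2(CPM + 0.1), where the difference between 2 groups is called logFC, the rise at 6 h was 2.12 (SE 0.34, 95% CI 1.37 to 2.87, adjusted p = 0.0099 by limma with Benjamini-Hochberg adjustment over 15851 genes). It then fell by 1.51 between 6 h and 2 days (SE 0.34, adjusted p = 0.036 by limma). At 2 days the logFC against pre-SE was 0.61 (adjusted p = 0.36). Both calls depend on having 2 mice a group: without pre-SE replicate 2, SE 6 h replicate 1 or SE 6 h replicate 2, the adjusted p of the rise was between 0.065 and 0.079, and without any of the 4 SE mice that of the fall was between 0.14 and 0.17. On the opposite strand *Ppp1r15a* overlaps *Tulp2*, which was not listed in the table.

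*Hspa5*, also called BiP or GRP78, is the main Hsp70 chaperone of the ER. Its level was 180.58 and 235.85 CPM in the pre-SE mice, 411.67 and 576.79 CPM at 6 h after SE and 299.68 and 512.06 CPM at 2 days. In SE + LEV mice it was 337.48 and 285.28 CPM at 6 h and 258.67 and 269.36 CPM at 2 days. All 8 mice with SE were above both pre-SE mice, and both SE + LEV groups lay below the SE group of the same time without overlap. The logFC was 1.24 at 6 h (SE 0.30, 95% CI 0.58 to 1.90) and 0.92 at 2 days (SE 0.30, 95% CI 0.27 to 1.58), and neither passed the test (adjusted p = 0.057 and 0.11 by limma). The call at 6 h turned on the setting: it was made with median-of-ratios rescaling (adjusted p = 0.043), with the replicate number as a block (0.048) and with DESeq2 (0.0017), and the 14 alternatives gave adjusted p values from 0.0017 to 0.32. Ranked by group mean, *Hspa5* was highest in SE 6 h mice (494 CPM), followed by SE 2 days (406 CPM), SE + LEV 6 h (311 CPM), SE + LEV 2 days (264 CPM) and pre-SE mice (208 CPM). SE 2 days mice overlap both of their neighbours in this order, while SE + LEV 2 days mice overlap neither of theirs, and no comparison between these groups passed the test.

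*Herpud1* encodes a membrane protein of ER-associated degradation, the route by which misfolded proteins leave the ER, and it is a target of the same ER stress elements. It ranged from 38.07 to 66.01 CPM over the 10 mice, with 38.07 and 52.70 CPM before SE, 45.35 and 58.51 CPM at 6 h and 43.88 and 66.01 CPM at 2 days. These groups overlap, and the logFC was 0.20 at 6 h (95% CI -0.40 to 0.81) and 0.26 at 2 days (95% CI -0.34 to 0.87). The intervals leave out a rise as large as the 1.24 estimated for *Hspa5* at 6 h, but not smaller changes in either direction. On the opposite strand *Herpud1* overlaps *Gm15890*, which is also listed.

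The transcription factor genes *Atf6* and *Xbp1* were not called in any comparison. *Atf6* was 38.18 and 39.08 CPM before SE, 43.78 and 54.68 CPM at 6 h and 63.68 and 51.87 CPM at 2 days. As with *Hspa5*, both SE groups and both SE + LEV groups lay above the pre-SE mice. The logFC of *Atf6* was 0.34 at 6 h (SE 0.22, adjusted p = 0.46) and 0.57 at 2 days (SE 0.22, 95% CI 0.07 to 1.07, adjusted p = 0.19 by limma). *Xbp1* was 131.36 and 129.43 CPM before SE, 154.98 and 167.39 CPM at 6 h and 113.97 and 167.45 CPM at 2 days. It had a logFC of 0.30 at 6 h (95% CI -0.22 to 0.83) and 0.08 at 2 days (95% CI -0.44 to 0.61), and only the groups at 6 h did not overlap. These levels say nothing of the spliced form of *Xbp1* or of the cleaved form of ATF6.

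*Atf4*, the central factor of the integrated stress response, was 73.36 and 86.11 CPM before SE and 136.06 and 120.32 CPM at 6 h after SE. At 2 days after SE the mice were at 85.18 and 213.55 CPM, the widest gap in any group for this gene. The logFC was 0.69 at 6 h (SE 0.42, adjusted p = 0.42) and 0.76 at 2 days (SE 0.42, adjusted p = 0.36 by limma), and the SE 2 days group overlapped the pre-SE group. *Ddit3*, which encodes the proapoptotic factor CHOP, was 20.38 and 34.44 CPM before SE, 37.21 and 26.72 CPM at 6 h and 40.36 and 50.82 CPM at 2 days. Its logFC was 0.25 at 6 h (95% CI -0.60 to 1.10) and 0.77 at 2 days (SE 0.38, 95% CI -0.08 to 1.63, adjusted p = 0.30), where the groups no longer overlapped. *Ddit3* shares its locus with *Mars* and RP24-341K21.6 on the opposite strand, both listed. *Asns*, the asparagine synthetase gene through which ATF4 supplies asparagine, was 79.74 and 80.60 CPM before SE, 79.48 and 94.01 CPM at 6 h and 74.50 and 112.67 CPM at 2 days. Its logFC was 0.11 (95% CI -0.42 to 0.64) and 0.19 (95% CI -0.34 to 0.72).

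*Ddit4* (REDD1), an inhibitor of mTORC1 that ATF4, hypoxia and glucocorticoids can induce, was the exception in direction. It was 35.76 and 28.58 CPM before SE, 30.28 and 19.12 CPM at 6 h after SE and 16.83 and 10.13 CPM at 2 days. In SE + LEV mice it was 32.40 and 13.38 CPM at 6 h and 19.73 and 17.91 CPM at 2 days. Both groups at 2 days lay below the pre-SE mice. The logFC at 2 days after SE was -1.29 (SE 0.43, 95% CI -2.23 to -0.34), which did not pass the test (adjusted p = 0.12 by limma). The replicate number as a block gave an adjusted p of 0.048, the lowest of the 14 alternatives, and the highest was 0.63.

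**Figure D2:**
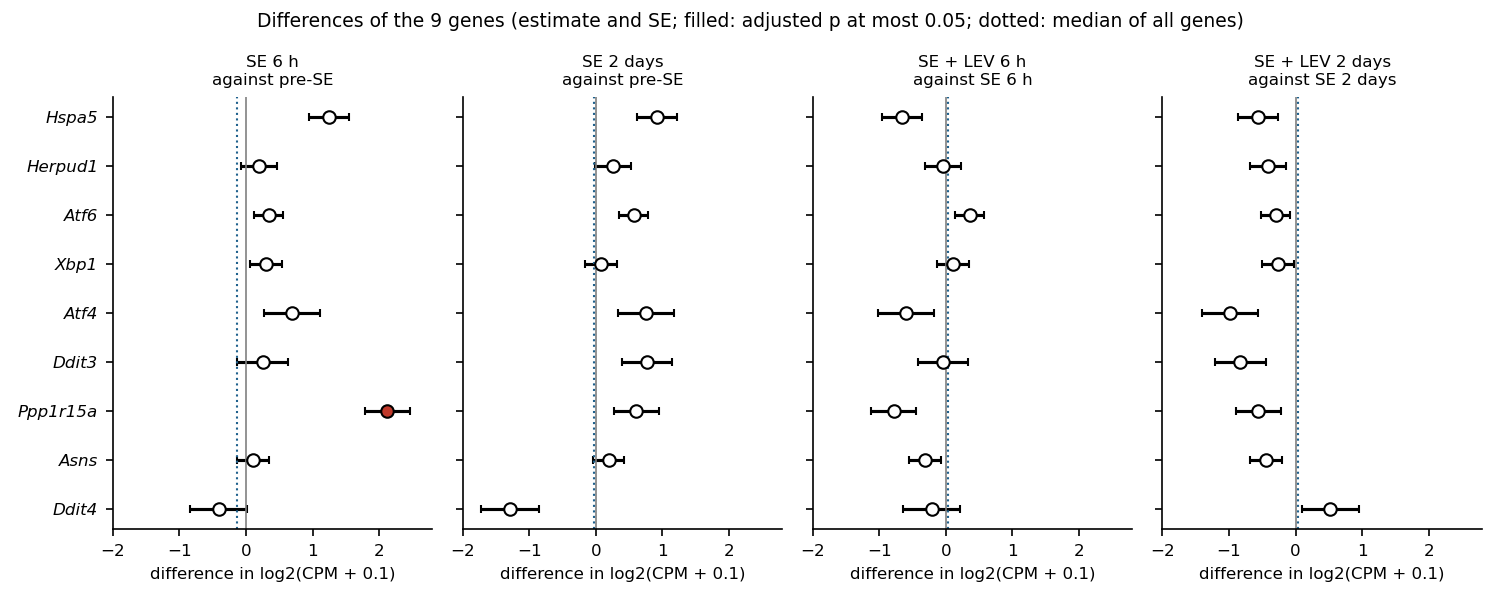
Difference in log2(CPM + 0.1) between groups (horizontal axes) for the 9 genes, as the limma estimate (dot) with its standard error (bar); filled dots passed an adjusted p of at most 0.05 and the dotted line is the median of all genes. *Ppp1r15a* at 6 h (2.12) is the only filled dot, and 8 of 9 estimates lie below 0 for SE + LEV against SE at 2 days.

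Counted over the set, 1 of the 9 genes rose at 6 h after SE, where 2.96% of all genes were called in either direction, and 0 of 9 were called at 2 days, where 5.66% of all genes were. Before adjustment, a p under 0.05 was reached by *Hspa5* and *Ppp1r15a* at 6 h (2 genes, both higher) and by 3 genes at 2 days, of which *Hspa5* and *Atf6* were higher and *Ddit4* was lower. Of all 15851 genes, limma gave such a p to 1460 higher and 1349 lower at 6 h, and to 1977 higher and 1155 lower at 2 days. At 2 days DESeq2 called 1 gene (*Hspa5*) and edgeR 0. Both SE mice were above both pre-SE mice for 5 of 9 genes at 6 h, against 18.6% of all genes, and for 4 of 9 at 2 days, against 26.3%. The median logFC of the 9 genes was 0.30 at 6 h and 0.57 at 2 days, while that of all genes was -0.13 and -0.03. The median of all genes at 6 h moved to 0 under median-of-ratios rescaling; relative to it, the logFC at 6 h was 2.25 for *Ppp1r15a*, 1.37 for *Hspa5*, 0.82 for *Atf4* and -0.28 for *Ddit4*. Between 6 h and 2 days after SE, 1 of 9 genes was called, the fall of *Ppp1r15a*, against 4.25% of all genes.

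The comparison of SE + LEV with SE asked how the genes stood after treatment with LEV. No gene of the set was called at 6 h, where 0.0126% of all genes were, or at 2 days, where 0.0% were, and every adjusted p of the 9 genes rounded to 1. Before adjustment, 1 gene had a p under 0.05 at each time, *Ppp1r15a* at 6 h (logFC -0.78, 95% CI -1.53 to -0.03) and *Atf4* at 2 days (logFC -0.98, 95% CI -1.92 to -0.03). Of all 15851 genes, 184 higher and 542 lower reached it at 6 h, and 208 higher and 220 lower at 2 days. DESeq2 and edgeR called 0 of the 9 at both times. The estimates were below 0 for 7 of 9 genes at 6 h and for 8 of 9 at 2 days, against 44.2% and 44.6% of all genes, and the median logFC was -0.21 and -0.44, against 0.04 for all genes at both times. The estimates of *Atf4*, *Hspa5*, *Asns*, *Herpud1* and *Xbp1* at 2 days depended on SE 2 days replicate 2. Without this mouse the logFC was -0.31 for *Atf4*, -0.18 for *Hspa5*, -0.14 for *Asns*, -0.13 for *Herpud1* and 0.01 for *Xbp1*. Those of *Ddit3*, *Atf6* and *Ppp1r15a* were then -0.67, -0.45 and -0.59. The estimate of *Ppp1r15a* at 6 h was -0.29 without SE + LEV 6 h replicate 2 and -1.26 without SE + LEV 6 h replicate 1.

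At 6 h both SE + LEV mice were below both SE mice for 4 of 9 genes, *Hspa5*, *Atf4*, *Asns* and *Ppp1r15a*, against 13.4% of all genes. *Atf4* was 100.28 and 72.48 CPM in SE + LEV mice at 6 h and overlapped the pre-SE mice, and *Asns* was 70.61 and 68.69 CPM, below both pre-SE mice. At 2 days 6 of 9 genes were below, *Hspa5*, *Ddit3*, *Atf6*, *Asns*, *Herpud1* and *Ppp1r15a*, against 12.2% of all genes. *Ddit3* was 31.00 and 20.78 CPM in SE + LEV mice at 2 days, with a logFC of -0.83 (95% CI -1.69 to 0.02) against SE. *Asns* was 62.96 and 72.54 CPM (logFC -0.44, 95% CI -0.97 to 0.09) and *Herpud1* 41.22 and 39.10 CPM (logFC -0.42, 95% CI -1.03 to 0.18). *Hspa5* had a logFC of -0.65 at 6 h (95% CI -1.31 to 0.01) and -0.57 at 2 days (95% CI -1.23 to 0.09). The upper bounds of these intervals lay between 0.01 and 0.18.

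*Atf6* went the other way at 6 h. It was 59.24 and 67.07 CPM in SE + LEV mice at 6 h, above both SE mice (logFC 0.36), and 43.25 and 50.07 CPM at 2 days, below both SE mice (logFC -0.30). The difference of the LEV effects between the times was -0.67 (95% CI -1.37 to 0.04, adjusted p = 1 by limma). For this difference 0 of 9 genes were called and 0.0% of all genes were, and 0 of 9 had a p under 0.05 before adjustment; edgeR and DESeq2 also called 0. *Xbp1* was 188.93 and 160.62 CPM in SE + LEV mice at 6 h and 103.95 and 125.97 CPM at 2 days, with overlap at both times. *Herpud1* was 53.79 and 46.96 CPM and *Ddit3* 42.56 and 22.01 CPM in SE + LEV mice at 6 h, with logFCs of -0.04 each. *Ddit4* was the only gene of the set above the SE mice at 2 days (logFC 0.52, 95% CI -0.43 to 1.47).

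Against pre-SE mice, SE + LEV mice had 0 of 9 genes called at 6 h and at 2 days, where 0.322% and 2.85% of all genes were called. These comparisons share the pre-SE mice with those of SE. *Ppp1r15a* had a logFC of 1.34 at 6 h (SE 0.34, 95% CI 0.59 to 2.09, adjusted p = 0.18 by limma, 0.0062 by DESeq2, 0.0062 to 0.78 over the 14 alternatives) and 0.05 at 2 days (95% CI -0.70 to 0.80). *Atf6* had 0.71 at 6 h (95% CI 0.21 to 1.20, adjusted p = 0.30), and *Hspa5* 0.59 at 6 h and 0.35 at 2 days. Before adjustment, 2 genes reached a p under 0.05 at 6 h, both higher, and 0 genes did so at 2 days. Of all 15851 genes, limma gave such a p to 876 higher and 611 lower at 6 h, and to 1404 higher and 303 lower at 2 days. DESeq2 called 1 gene of the set at 6 h and 0 at 2 days, against 378 and 819 of all genes. For edgeR it was 0 at both times, against 48 and 465 of all genes. From SE + LEV 6 h to SE + LEV 2 days all 9 estimates were below 0, against 42.3% of all genes. Of the set 0 genes were called, against 2.14% of all genes. At an unadjusted p under 0.05, 2 genes of the set were lower, and of all genes 1461 were higher and 428 lower. *Ppp1r15a* had the largest estimate in size at -1.29 (adjusted p = 0.10 by limma, 0.0038 by DESeq2, which called 626 of all genes). Its logFC ran from -1.78 to -0.81 over the 14 alternatives.

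The 2 mice of a group did not always lie close. In SE 2 days mice, replicate 2 was higher than replicate 1 for 6 of 9 genes, with a median log2 difference of 0.55, against 44.8% of all genes. The same mouse was higher for 17 of 20 other ER chaperones and folding enzymes (median 0.28). A like split was seen before SE, where replicate 2 was higher for 16 of 20 (median 0.32). At 6 h it was higher for 13 of 20 in SE mice and 11 of 20 in SE + LEV mice. In SE + LEV 2 days mice it was higher for 5 of 20 (median -0.45). In SE + LEV 6 h mice, replicate 2, the library with the fewest tags (10540698), was higher for 1 of 9 genes, against 57.0% of all genes. Tag numbers behind single values of the set ran from 141 (*Ddit4*, SE + LEV 6 h replicate 2) to 12835 (*Hspa5*, SE 6 h replicate 1).

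The genes around the set in the same pathways were described by lists. Of all genes, 2.96% were called at 6 h and 5.66% at 2 days against pre-SE, and the calls in each list stand beside these shares. No list was tested as a set. Among 20 ER chaperones and folding enzymes, none was called at 6 h, with 10 estimates above 0 and a median logFC of -0.02. At 2 days *Sdf2l1*, a component of the ER chaperone complex, rose from 19.97 and 27.21 CPM to 43.76 and 58.89 CPM (logFC 1.12, SE 0.28, adjusted p = 0.046 by limma, 0.0078 to 0.36 over the 14 alternatives), and 17 of 20 estimates were above 0 with a median of 0.44. The *Sdf2l1* call was lost in 9 of the 14 alternatives, including the replicate block and each of the 4 mice left out.

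Among 16 listed genes of ER-associated degradation and translocation (*Vimp* was not listed), none was called at 6 h and 1 was at 2 days. *Edem1*, which directs misfolded glycoproteins to degradation and is a target of XBP1, rose from 8.69 and 12.80 CPM to 38.63 and 46.19 CPM at 2 days (logFC 1.99, SE 0.38, adjusted p = 0.013 by limma, 1.4e-05 to 0.13 over the 14 alternatives), and stood at 44.40 and 32.74 CPM in SE + LEV mice (logFC 1.84 against pre-SE, adjusted p = 0.028 by limma, 0.00016 to 0.25 over the 14 alternatives). The rise after SE was not called without SE 2 days replicate 2 or pre-SE replicate 1. That in SE + LEV mice was not called with only the groups compared in the fit, nor without SE + LEV 2 days replicate 1 or either pre-SE mouse. *Sel1l*, the scaffold of the main degradation complex, had a logFC of -0.75 at 6 h that did not pass the test (adjusted p = 0.11). *Erlec1* had the largest estimate in size at 6 h, -0.82, and did not pass either (adjusted p = 0.27 by limma). The list medians were -0.26 at 6 h and 0.12 at 2 days.

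Of 9 ER stress sensors and their proteases, which include *Ern1* (IRE1) and *Eif2ak3* (PERK), only *Creb3l2*, a membrane-bound relative of ATF6, was called. It rose from 8.07 and 10.13 CPM to 25.10 and 22.07 CPM at 2 days (logFC 1.37, adjusted p = 0.029 by limma), and leaving out any of the 4 mice lost the call (highest adjusted p 0.21). Of 13 genes for the other eIF2α kinases, the subunits of eIF2 and eIF2B and phosphatase partners, none was called at 6 h. *Eif2ak2* (PKR), the kinase that responds to double-stranded RNA and is induced by interferon, was called at 2 days: it was 8.35 and 9.36 CPM before SE, 7.06 and 7.95 CPM at 6 h and 52.11 and 26.32 CPM at 2 days (logFC 2.05, adjusted p = 0.022 by limma, 5.9e-05 to 0.13 over the 14 alternatives). The call was lost without SE 2 days replicate 1 or either pre-SE mouse. *Ppp1r15b*, the constitutive counterpart of *Ppp1r15a*, had a logFC of 0.90 at 6 h that was not called (adjusted p = 0.16 by limma). Also not called was *Eif2s2*, for a subunit of eIF2, at 20.31 and 32.57 CPM before SE and 44.97 and 139.5 CPM at 6 h. It overlaps the gene *a* on the opposite strand. *Eif2ak2* overlaps *Gm16825* and n-R5s29 on the opposite strand.

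**Figure D3:**
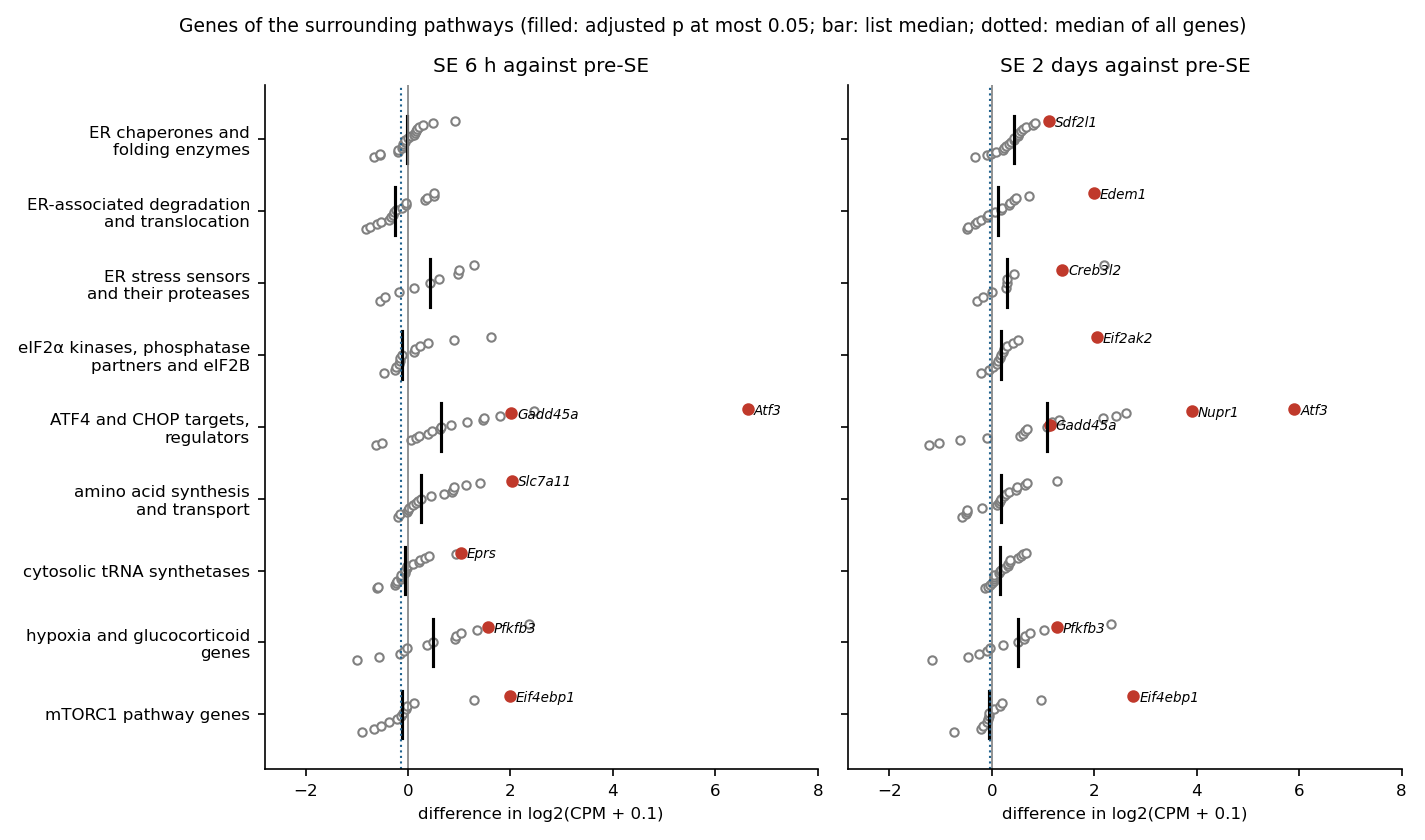
Difference in log2(CPM + 0.1) from pre-SE mice (horizontal axes) after SE, at 6 h (left) and 2 days (right), for the genes of 9 pathway lists (rows); each dot is a gene, filled where the adjusted p was at most 0.05, the bar is the median of the list and the dotted line that of all genes. *Atf3* (6.63 at 6 h and 5.90 at 2 days) lies farthest from 0, and the median of the ER chaperones is -0.02 at 6 h and 0.44 at 2 days.

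The list of targets and regulators of ATF4 and CHOP held the largest differences. Of its 17 genes, 2 rose at 6 h and 3 at 2 days, with median logFCs of 0.64 and 1.07. *Atf3*, a stress-induced transcription factor that neuronal activity and injury also induce, was 0.24 and 1.10 CPM before SE, 67.45 and 59.54 CPM at 6 h and 17.55 and 81.96 CPM at 2 days (logFC 6.63 and 5.90, adjusted p = 0.0050 and 0.0048 by limma). The value at 2 days was not called without SE 2 days replicate 2. Over the 14 alternatives the logFC of *Atf3* ran from 5.32 to 7.54 at 6 h and from 4.6 to 7.01 at 2 days. *Gadd45a*, a stress gene that p53 also induces, rose from 8.97 and 7.93 CPM to 29.57 and 40.22 CPM at 6 h (logFC 2.02, adjusted p = 0.0054 by limma, highest 0.060, without SE 6 h replicate 2). At 2 days it was 22.56 and 15.33 CPM (logFC 1.13, adjusted p = 0.046 by limma, 0.0018 to 0.19 over the 14 alternatives), a call lost in 8 of them, among which were the replicate block and all 4 mice left out. *Nupr1*, a small chromatin-associated stress protein, was 3.38 and 4.64 CPM before SE, 3.40 and 5.0 CPM at 6 h and 55.97 and 65.20 CPM at 2 days (logFC 3.90, adjusted p = 0.0046 by limma, highest 0.055, without SE 2 days replicate 2). *Gadd45a* overlaps E230016M11Rik on the opposite strand.

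With LEV, none of these 17 genes was called against SE. *Atf3* was 16.45 and 6.36 CPM in SE + LEV mice at 6 h and 11.75 and 2.30 CPM at 2 days, below the SE mice at both times (logFC -2.62 and -2.84, adjusted p = 0.87 and 1). *Gadd45a* was 17.48 and 17.27 CPM at 6 h. *Nupr1* was 65.11 and 14.09 CPM in SE + LEV mice at 2 days, with a call against pre-SE (logFC 2.90, adjusted p = 0.028 by limma, 3.5e-07 to 0.20 over the 14 alternatives) that was lost with the replicate block, with only the groups compared in the fit, and without SE + LEV 2 days replicate 1 or either pre-SE mouse. The median of the list against SE was -0.27 at 6 h and -0.81 at 2 days.

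Of 17 genes for amino acid synthesis and transport that ATF4 controls, 1 rose at 6 h and none was called at 2 days. *Slc7a11*, the cystine transporter, went from 13.31 and 24.13 CPM to 62.26 and 86.61 CPM (logFC 2.03, SE 0.44, adjusted p = 0.037 by limma, 5.7e-05 to 0.25 over the 14 alternatives; lost with the replicate block and when any of the 4 mice was left out). It was 67.02 and 62.61 CPM in SE + LEV mice at 6 h and 31.33 and 16.33 CPM at 2 days after SE. At 6 h 14 of the 17 estimates were above 0, with a median of 0.25, while 3 of 17 were above 0 for SE + LEV against SE at that time (median -0.34). In that comparison *Mthfd2*, of mitochondrial folate metabolism, was 9.14 and 7.81 CPM in SE mice and 3.19 and 3.32 CPM in SE + LEV mice (logFC -1.35, adjusted p = 0.65 by limma). *Pycr1*, of proline synthesis, was 0.32 and 0.14 CPM in SE mice and 0.0 CPM in both SE + LEV mice, near the level of 3 tags, and no fold is given for it. Of 20 cytosolic tRNA synthetases, *Eprs* alone rose at 6 h, from 46.90 and 57.69 CPM to 98.43 and 114.56 CPM (logFC 1.03, adjusted p = 0.044 by limma). Its logFC ran from 0.88 to 1.18 over the 14 alternatives. The call was lost with only the groups compared in the fit and when any of the 4 mice was left out. The medians of this list were -0.05 at 6 h and 0.16 at 2 days.

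The lists around *Ddit4* also held few calls. Of 13 listed genes induced by hypoxia or glucocorticoids (*Car9* was not listed), *Pfkfb3*, a regulator of glycolysis, rose at 6 h and 2 days (15.00 and 11.43 CPM before SE, 32.62 and 46.18 CPM at 6 h, 26.75 and 37.40 CPM at 2 days; logFC 1.56 and 1.27, adjusted p = 0.020 and 0.033 by limma). Both calls were lost with only the groups compared in the fit, without replicate 2 of the SE group and without either pre-SE mouse. Over the 14 alternatives the logFC of *Pfkfb3* ran from 1.31 to 1.81 at 6 h and from 1.02 to 1.51 at 2 days. The list medians were 0.49 at 6 h and 0.51 at 2 days, with 8 of 13 estimates above 0 at each time. *Ddit4* itself had estimates below 0, as did other genes of the list. Among these, *Tsc22d3* was 105.98 and 69.87 CPM before SE and 42.44 and 34.77 CPM at 2 days after SE. Of 12 genes of the mTORC1 pathway, *Eif4ebp1*, a translation repressor that ATF4 induces and mTORC1 inhibits, rose at both times, from 5.48 and 5.65 CPM to 20.56 and 24.39 CPM at 6 h and 36.84 and 39.69 CPM at 2 days (logFC 1.99 and 2.76, adjusted p = 0.044 and 0.0059 by limma). The call at 6 h was lost with the replicate block, with pseudocounts of 0.5 and 1 and when any of the 4 mice was left out (highest adjusted p 0.25), and that at 2 days without SE 2 days replicate 2 (0.066). The other 11 genes of the list were not called, and the list medians were -0.11 and -0.06. Of the 137 genes of the 9 lists, limma, edgeR and DESeq2 called 0 for SE + LEV against SE at either time. Before adjustment, limma gave a p under 0.05 for genes of which 8 were lower and 0 higher at 6 h, and 6 were lower and 1 higher at 2 days. Of all 15851 genes, 542 were lower and 184 higher at 6 h by this measure, and 220 lower and 208 higher at 2 days.

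**Figure D4:**
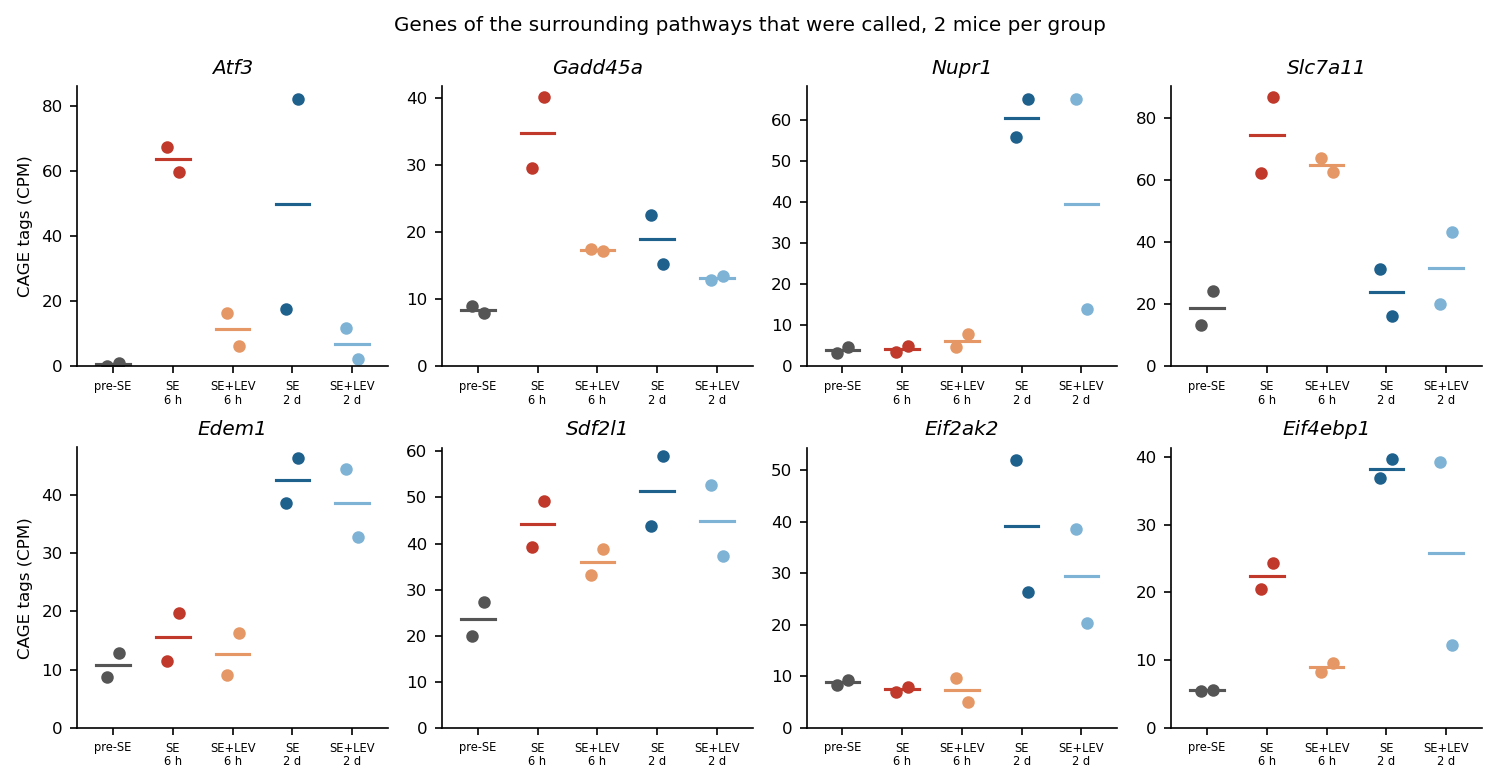
CAGE tags in CPM (vertical axes, from 0) for 8 called genes of the surrounding pathways in 5 groups of 2 mice; each dot is a mouse and each bar the mean of its group. *Gadd45a* and *Slc7a11* were highest at 6 h, and *Nupr1*, *Edem1* and *Eif2ak2* were highest in groups at 2 days.

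Over the 10 mice, the 2 genes outside the set whose profile was most like that of *Ppp1r15a* were *Rnf217*, a ubiquitin ligase gene (Pearson r = 0.976 on log2 values), and *Gm5812* (r = 0.975), out of 11964 genes with a mean of at least 5 CPM. *Rnf217* was 16.66 and 9.80 CPM before SE and 69.66 and 61.60 CPM at 6 h after SE, and in SE + LEV mice at 6 h it was 45.02 and 18.88 CPM. *Gm5812*, which overlaps *Tulp4* on the opposite strand, was 33.26 and 31.24 CPM at 6 h after SE and at most 2.93 CPM in mice before SE or at 2 days. The likeness rests on the same 10 libraries and mostly on the level at 6 h.

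Cell type markers and neuronal activity moved in the same samples, and their part in the results above was not tested. Of 9 activity-regulated genes, 8 rose at 6 h and 8 at 2 days (median logFC 4.94 and 3.62). For SE + LEV against SE none of the 9 was called, but all 9 were lower with a p under 0.05 before adjustment at both times (median logFC -2.15 each), beside the mostly lower estimates of the stress-response genes. None of 9 neuron markers was called at either time, although 3 of 9 estimates at 6 h and 1 of 9 at 2 days were above 0 (median logFC -0.16 and -0.31), and their summed level was 5250 to 6820 CPM before SE, 4300 to 6120 CPM at 6 h and 3900 to 4160 CPM at 2 days. Of 8 astrocyte markers, *Vim* rose at 6 h and *Vim*, *Gfap* and *Aqp4* at 2 days, when the summed level was 4160 to 5880 CPM against 2700 to 3230 CPM before SE. *Gfap* held the largest gain in CPM, from 245.62 and 230.22 CPM before SE to 2281.84 and 3642.11 CPM at 2 days. The markers did not move together: 4 of the 8, *Aldoc*, *Gja1*, *Slc1a2* and *Slc1a3*, were lower at 2 days with a p under 0.05 before adjustment and were not called, with *Slc1a2* at 1546.80 and 1484.23 CPM before SE and 786.25 and 808.71 CPM at 2 days. Of 6 microglia markers, *P2ry12* and *Tmem119* fell at 6 h and *Aif1* rose at 2 days, and the summed level was 154 to 165 CPM before SE, 71.5 to 86.7 CPM at 6 h and 298 to 309 CPM at 2 days. Of 7 markers of endothelial cells and pericytes, *Cdh5* rose at 6 h, and the summed level was 106 to 126 CPM before SE and 173 to 261 CPM at 6 h. The calls of *Vim*, *P2ry12* and *Cdh5* at 6 h and of *Aqp4* at 2 days were each lost in some of the alternatives that left out a mouse. None of 6 oligodendrocyte lineage markers was called (4190 to 4770 CPM before SE and 1560 to 2340 CPM at 2 days), and for SE + LEV against SE at 2 days all 6 estimates were above 0 (median logFC 0.52). Of 7 blood leukocyte markers only *S100a8* and *S100a9* were listed, at a summed level of at most 5.70 CPM in any mouse.

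Of 5 markers of choroid plexus and ependyma 4 were listed and none was called, but *Ttr*, the marker of the choroid plexus, separated mice within groups. It was 5.83 and 1667.87 CPM in the pre-SE mice, 4.33 and 3935.71 CPM at 6 h after SE, 843.42 and 29.98 CPM in SE + LEV 6 h mice, 55.59 and 13.52 CPM at 2 days after SE and 1475.00 and 18.89 CPM in SE + LEV 2 days mice. The mouse with more *Ttr* had the higher *Hspa5* level in the pre-SE, SE 6 h and SE + LEV 6 h groups and the lower one in both groups at 2 days. In the mice with little *Ttr*, *Hspa5* was 180.58 CPM before SE and 411.67 CPM at 6 h, and *Ppp1r15a* was 16.52 CPM and 60.27 CPM. These are values of single mice, and the part of choroid plexus tissue in the results was not tested.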

How the data were processed

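CAGE libraries of 10 hippocampi were used as deposited. The authors mapped tags to mm9 with BWA 0.7.17 and HISAT2 2.0.5, clustered them with RECLU, discarded clusters of low level or poor reproducibility, and deposited CPM per gene, scaled to the same total in each library. How clusters were summed to genes, and whether strand was used, is not given in the sources used here, so genes that overlap on opposite strands are named as such. Whole tags were recovered from the CPM steps for 99.99 to 100.0% of values and gave 10540698 to 51710968 tags a library, so that 3 tags were worth 0.058 to 0.285 CPM. All 15900 identifiers matched the mm9 annotation. Replicates differed beyond sampling noise (chi-square per degree of freedom 52.3 to 160.8). The labels do not say whether libraries were made in batches. The labels name samples as replicates, and p-values measure the spread between these mice.

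The CPM values, after adding 0.1, were put on the log2 scale and fitted by limma 3.58.1 (R 4.3.3), which estimated 5 group means and a spread shared by the 10 libraries, with a trend on the mean level. Two-sided tests were adjusted by the Benjamini-Hochberg method over 15851 genes, those with 0.1 CPM or more in 2 or more libraries, and an adjusted p up to 0.05 was counted as a call. The test was checked on simulated data. As alternatives, the pseudocount was set to 0.01, 0.5 and 1, the filter was dropped or raised to 1 CPM, levels were rescaled by the median of ratios, the replicate number was added as a block, the fit was limited to the groups of a comparison, each mouse was left out in turn, and the recovered tags were tested with edgeR 4.0.16 (quasi-likelihood) and DESeq2 1.42.0.

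The genes and lists were chosen with earlier results of these data known. Named were all genes of the set and the 2 genes of at least 5 CPM most correlated with a called gene of the set. From each list and comparison up to 3 called genes in each direction were picked, or up to 2 with the largest difference where none was called. Not all of the picked genes are described. 1 gene of a marker list is not reported here. Promoter sequences are from RefSeq (GRCm38.p6), whose coordinates are not those of mm9. Python 3.11.15 with pandas 2.3.3 and matplotlib 3.10.9 made the tables and plots.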

Additional observations from a re-analysis of the deposited data

How the results depend on the processing

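Of the 9 genes, 1 was called at 6 h after SE, and the count was 2 (*Hspa5* and *Ppp1r15a*) with median-of-ratios rescaling, with the replicate block and with DESeq2, and 0 to 1 with a mouse left out. At 2 days against pre-SE the count was 0, and 1 with the block (*Ddit4*) or DESeq2 (*Hspa5*), and 0 to 1 with a mouse left out. For SE 2 days against SE 6 h it was 1, and 0 without any of the 4 mice. DESeq2 called 1 (*Ppp1r15a*) for SE + LEV 6 h against pre-SE and for SE + LEV 2 days against SE + LEV 6 h, where limma called 0. Counts for SE + LEV against SE stayed at 0 under every alternative run. Over all genes DESeq2 made 1107 calls at 6 h and 1607 at 2 days for SE against pre-SE, and limma 469 and 897. For SE + LEV 6 h against pre-SE DESeq2 made 378 calls and limma 51. From SE + LEV 6 h to SE + LEV 2 days they made 626 and 339. Same-numbered mice are different animals, the correlation of their deviations ran from -0.44 to 0.34 over the comparisons, and the block changed no other call of the set; of the list genes whose calls are described above, it lost those of *Eif4ebp1* and *Slc7a11* at 6 h and *Gadd45a* and *Sdf2l1* at 2 days against pre-SE, and of *Nupr1* in SE + LEV 2 days mice. The cause was not tested; where 1 mouse of a group is left out, the other is assumed to vary like the other groups. Estimates of uncalled genes, not all of them near 0, changed sign in 51 of the recomputed values. With a mouse left out they ran, at 6 h against pre-SE, from -0.01 to 0.23 (*Asns*), -0.13 to 0.63 (*Ddit3*) and -0.03 to 0.44 (*Herpud1*), and at 2 days from -0.11 to 0.49 (*Asns*), -0.03 to 0.56 (*Herpud1*) and -0.19 to 0.36 (*Xbp1*). For SE + LEV against SE they ran from -0.52 to 0.43 (*Ddit3*), -0.84 to 0.43 (*Ddit4*), -0.22 to 0.15 (*Herpud1*) and -0.004 to 0.23 (*Xbp1*) at 6 h, and from -0.55 to 0.01 (*Xbp1*) at 2 days. For SE 2 days against SE 6 h they ran from -0.21 to 0.38 (*Asns*), -0.59 to 0.74 (*Atf4*), -0.23 to 0.36 (*Herpud1*), -0.70 to 0.07 (*Hspa5*) and -0.50 to 0.06 (*Xbp1*), and median-of-ratios rescaling gave -0.02, -0.03 and -0.04 for the first 3 of these and DESeq2 -0.01 for *Herpud1*. For SE + LEV against pre-SE they ran from -0.13 to 0.33 (*Atf4*), -0.27 to 0.68 (*Ddit3*), -1.25 to 0.02 (*Ddit4*) and -0.07 to 0.40 (*Herpud1*) at 6 h, and from -0.69 to 0.26 (*Atf4*), -0.44 to 0.32 (*Ddit3*), -0.39 to 0.08 (*Herpud1*) and -0.27 to 0.36 (*Ppp1r15a*, -0.004 by DESeq2) at 2 days. For SE + LEV 2 days against SE + LEV 6 h they ran from -0.15 to 0.06 (*Asns*), -0.79 to 0.16 (*Atf4*), -0.74 to 0.20 (*Ddit3*) and -0.78 to 0.49 (*Ddit4*), and for the difference of the LEV effects from -0.43 to 0.17 (*Asns*), -1.05 to 0.27 (*Atf4*), -0.30 to 0.47 (*Hspa5*) and -0.27 to 0.70 (*Ppp1r15a*). Each library held 10540698 tags or more, and replicates differed beyond sampling noise. Depth was not varied, and its part in these results was not tested.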
